A study of Mus musculus with 6 samples.

Results

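The genes described here are the 10 that make urea in hepatocytes or supply it with ammonia. They are the enzymes *Cps1*, *Otc*, *Ass1*, *Asl* and *Arg1*, the synthase *Nags*, the mitochondrial carriers *Slc25a15* and *Slc25a13*, and the ammonia-releasing enzymes *Gls2* and *Glud1*. They were chosen by name, by their role in the pathway, from 25184 genes in the count table, and all 10 were among the 15105 genes with enough counts to be tested. Their mRNA was measured by stranded poly(A) RNA sequencing in primary hepatocytes of 6 mice, 3 of them Sucnr1 fl/fl controls and 3 Hep-Sucnr1 KO. The Alb-Cre line behind the Hep-Sucnr1 KO mice had a C57BL6J background. The background of the floxed line is not given in the sources used here. None of the 10 passed the test for a genotype difference across all genes. At an FDR of 0.05, 0% of all genes passed in edgeR and 0.0463% in DESeq2. Libraries of the same genotype differed by more than the genotype means did, with *Gls2* between 151 and 295 CPM (counts scaled to library size) among the Hep-Sucnr1 KO libraries and *Ass1* between 1450 and 2377 CPM among the controls.

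All 6 mice carried *Sucnr1*, which encodes a cell surface receptor for succinate, as floxed alleles with loxP sites around exon 2. In Hep-Sucnr1 KO mice (Sucnr1 fl/fl Alb-Cre+/−) the *Alb* promoter drove Cre recombinase in hepatocytes, and the Sucnr1 fl/fl controls carried no Cre, so that Cre and the deletion cannot be told apart. The age and sex of these 6 mice are not given in the sources used here. The cells came from perfused livers of mice on a chow diet. Whether these mice were fed, fasted or refed beforehand is not given in the sources used here. The cells were kept overnight on collagen in a high-glucose medium with glutamine, pyruvate and fetal bovine serum. The levels are thus those of attached cells and not of the liver. The libraries fall on 2 extraction days, and the paper does not say whether this is the extraction of cells or of RNA. Day 1 had 1 library of each genotype (Sucnr1 fl/fl replicate 1 and Hep-Sucnr1 KO replicate 3). Day 2 had 2 of each (Sucnr1 fl/fl replicates 2 and 3 and Hep-Sucnr1 KO replicates 4 and 5). The index names of Sucnr1 fl/fl replicates 1 and 2 are numbered apart from those of the other 4 libraries. This grouping by number is called the index series below. The paper names the same index set for all libraries. Whether the grouping marks a batch is not given in the sources used here. Values per library are given below in the order Sucnr1 fl/fl replicates 1, 2 and 3, then Hep-Sucnr1 KO replicates 3, 4 and 5, and the Sucnr1 fl/fl libraries are called the controls.

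The urea cycle turns toxic ammonia into urea and runs partly in mitochondria and partly in the cytosol. CPS1 joins ammonia and bicarbonate to carbamoyl phosphate in the mitochondrial matrix, OTC transfers the carbamoyl group to ornithine, ASS1 and ASL bring in the nitrogen of aspartate in the cytosol, and ARG1 releases urea and returns ornithine. In the liver the enzymes of the cycle and GLS2 are most abundant in hepatocytes around the portal vein, while glutamine synthetase (GLUL) captures the remaining ammonia in the last hepatocytes before the central vein. Transcription of the cycle's genes is known to respond to glucagon, glucocorticoids and protein intake.

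**Figure D1:**
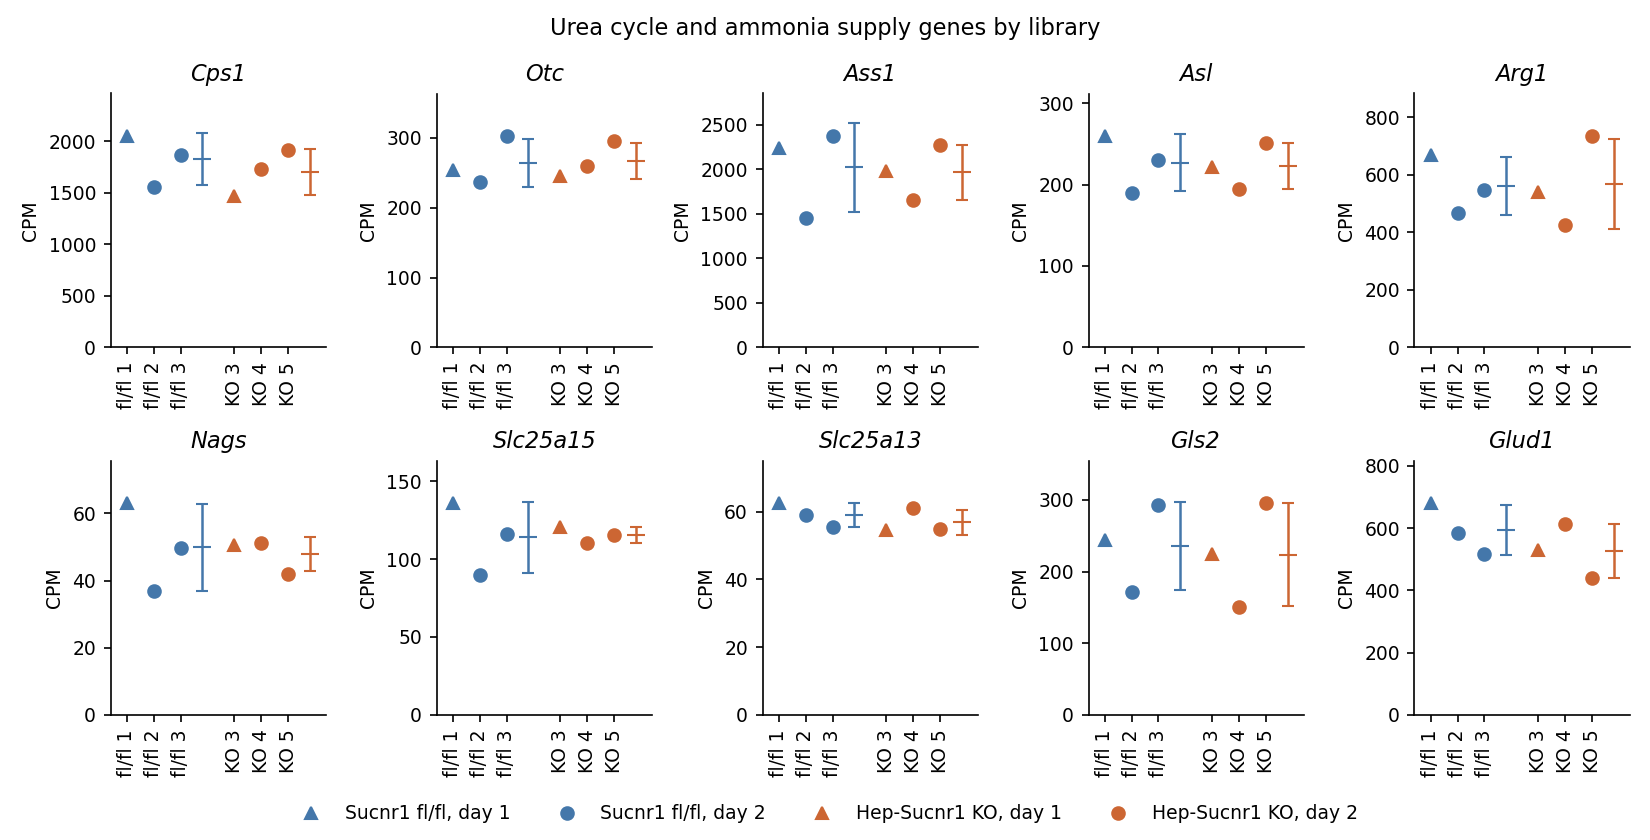
Level of each of the 10 genes (CPM, linear axis from 0) in the 6 libraries, with triangles for extraction day 1 and circles for day 2, and beside each genotype its mean ± SD (n = 3). The values of the Sucnr1 fl/fl libraries (blue) and the Hep-Sucnr1 KO libraries (orange) overlapped for all 10 genes.

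The promoters of the genes are described here. Whether they bear on which genes ran in parallel over the libraries was not tested. RefSeq promoter entries (GRCm38.p6) matched 6 of the 10 genes, namely *Ass1*, *Slc25a13*, *Slc25a15* (with 2 start sites), *Nags*, *Glud1* and *Otc*, and had no entry for *Cps1*, *Asl*, *Arg1* and *Gls2*. The 250 bases before the RefSeq start site are shown for *Otc* and *Ass1*, enzymes of the cycle, and for *Slc25a13* and *Glud1*, which ran together and apart from most of the others. The *Otc* window lies at chrX:10252055-10252304 on the plus strand, the *Ass1* window at chr2:31470020-31470269 on the plus strand, the *Slc25a13* window at chr6:6217174-6217423 on the minus strand and the *Glud1* window at chr14:34310477-34310726 on the plus strand. They are written 5′ to 3′ on the strand of the gene, with matches to any of 7 short motifs, on either strand, in capitals.
Otc: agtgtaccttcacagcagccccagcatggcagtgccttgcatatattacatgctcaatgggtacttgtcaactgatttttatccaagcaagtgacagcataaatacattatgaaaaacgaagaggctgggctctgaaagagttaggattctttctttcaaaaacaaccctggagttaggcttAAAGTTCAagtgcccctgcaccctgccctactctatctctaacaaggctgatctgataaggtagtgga
Ass1: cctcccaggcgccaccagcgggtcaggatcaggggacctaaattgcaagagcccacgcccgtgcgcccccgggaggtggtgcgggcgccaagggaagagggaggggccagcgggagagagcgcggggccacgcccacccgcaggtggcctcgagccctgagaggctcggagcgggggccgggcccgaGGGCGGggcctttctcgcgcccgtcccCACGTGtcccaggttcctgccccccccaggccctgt
Slc25a13: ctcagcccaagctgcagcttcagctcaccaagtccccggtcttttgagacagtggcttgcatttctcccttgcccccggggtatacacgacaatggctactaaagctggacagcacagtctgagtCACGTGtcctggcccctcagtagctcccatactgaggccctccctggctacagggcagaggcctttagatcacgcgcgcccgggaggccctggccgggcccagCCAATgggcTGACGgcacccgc
Glud1: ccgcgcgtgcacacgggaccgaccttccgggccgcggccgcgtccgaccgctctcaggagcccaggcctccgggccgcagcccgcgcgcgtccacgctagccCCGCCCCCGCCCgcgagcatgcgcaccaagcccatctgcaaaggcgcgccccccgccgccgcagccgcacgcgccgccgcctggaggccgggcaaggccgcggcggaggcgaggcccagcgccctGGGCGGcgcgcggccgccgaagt

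The motifs searched on both strands were the TATA box core TATAA, the CAAT box core CCAAT, the GC box GGGCGG, the E box CACGTG, the CRE core TGACG, the core AAAGTNCA of sites for HNF4-type nuclear receptors and the C/EBP-type core TTGCNNAA. *Otc* was the only one of the 6 genes with AAAGTNCA, at bases −68 to −61 before the start, and 3.53% of all 32851 RefSeq promoters held this motif in a window of the same length. The *Otc* window had a GC content of 43.6% and the *Glud1* window 82.0%, against a median of 52.4% over all promoters. In *Glud1* the capitals were GGGCGG or its reverse complement at 3 positions, 2 of which follow each other without a gap, and 32.7% of all promoters held that motif. *Ass1* held GGGCGG at −63 to −58 and CACGTG at −36 to −31. RefSeq places the start of *Ass1* downstream of the gene start in the GENCODE annotation (31470207), and both motifs lie inside the gene as GENCODE gives it. *Slc25a13* held CACGTG at −125 to −120, CCAAT at −22 to −18 and TGACG at −13 to −9. Of the windows not shown, *Slc25a15* held CACGTG at −77 to −72 of its site 2 and TATAA, on the opposite strand, at −214 to −210 of its site 1. GGGCGG or its reverse complement lay in both *Slc25a15* windows and in that of *Nags*. The E box, which reads the same on both strands, was in 6.02% of all promoters, CCAAT in 33.8%, TGACG in 17.8% and TATAA in 22.8%. None of the 6 genes held TTGCNNAA, which 9.56% of all promoters held. A match is a stretch of letters and not a bound site.

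*Sucnr1* mRNA was lower in the Hep-Sucnr1 KO libraries. It was counted 258, 118 and 103 times in the Sucnr1 fl/fl libraries and 84, 28 and 5 times in the Hep-Sucnr1 KO libraries. The lowest Sucnr1 fl/fl level, 3.40 CPM, lay close above the highest Hep-Sucnr1 KO level, 2.66 CPM in replicate 3. The log2 fold change was −2.23 (SE 0.54), with an adjusted p of 0.998 in edgeR's quasi-likelihood test and 0.0386 in DESeq2, and of 0.348 to 1.00 over the edgeR alternatives. The libraries held between 30504248 and 38770694 counts. At this depth even the least counted values of the 10 genes, 1225 counts of *Nags* and 1685 counts of *Slc25a13*, were far above the level where counting limits precision. The error was set by the spread between libraries. Mouse, cell isolation and culture differ together between libraries and cannot be told apart. P-values set a difference between groups against the variation between these libraries. The 6 hepatocyte markers *Alb*, *Ttr*, *Apoa1*, *Serpina1c*, *Fgb* and *Ahsg* together reached 75042 to 99135 CPM in the controls and 66474 to 103341 CPM in Hep-Sucnr1 KO. Other cell types were traces beside this. The summed level of 6 Kupffer cell markers was 25.8 to 90.3 and 5.57 to 80.9 CPM, of 6 endothelial markers 26.7 to 48.2 and 21.1 to 33.2 CPM, and of 6 stellate cell markers 7.58 to 23.3 and 5.88 to 8.99 CPM, each in the controls and then in Hep-Sucnr1 KO. The 6 cholangiocyte markers summed to 350 to 512 and 426 to 650 CPM, most of it *Sox9* and *Spp1*, and no marker of these lists was at 0 in every library. Hep-Sucnr1 KO replicate 4 stood apart, with the highest level of the 6 libraries for 9 of 10 pericentral landmark genes (*Glul* among them), against 19.3% of all genes. Values without it are given where they bear on a result.

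Within a library the 10 genes spanned a wide range of abundance. Levels between genes were compared as CPM per kb of the principal transcript. *Ass1* was the most abundant at 1176 ± 220 CPM per kb (SD, n = 6), which placed it at rank 80 of 15095 genes with a known length. *Arg1* followed at 382 ± 80.0 CPM per kb (rank 162), and *Cps1* at 318 ± 40.2 (rank 193). The order of *Arg1* and *Cps1* held in 5 of 6 libraries and turned when the length of all merged exons was used. *Glud1* reached 165 ± 24.8, *Otc* 115 ± 11.7, *Asl* 93.1 ± 11.9 and *Gls2* 89.3 ± 23.4 CPM per kb. *Asl* was above *Gls2* in 4 of 6 libraries, so that these neighbours did not differ beyond their spread, and with merged exons *Gls2* stood ahead of *Otc* and *Asl*. The carriers and the regulator of the cycle were the least abundant, with *Slc25a15* at 33.4 ± 4.36, *Nags* at 24.1 ± 4.41 and *Slc25a13* at 18.6 ± 1.11 CPM per kb. *Nags* was above *Slc25a13* in 5 of 6 libraries, and every other neighbouring pair kept its order in all 6. Even *Slc25a13* ranked 2512 of 15095 genes. The 10 genes took 0.519% to 0.661% of all counts of a library.

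**Figure D2:**
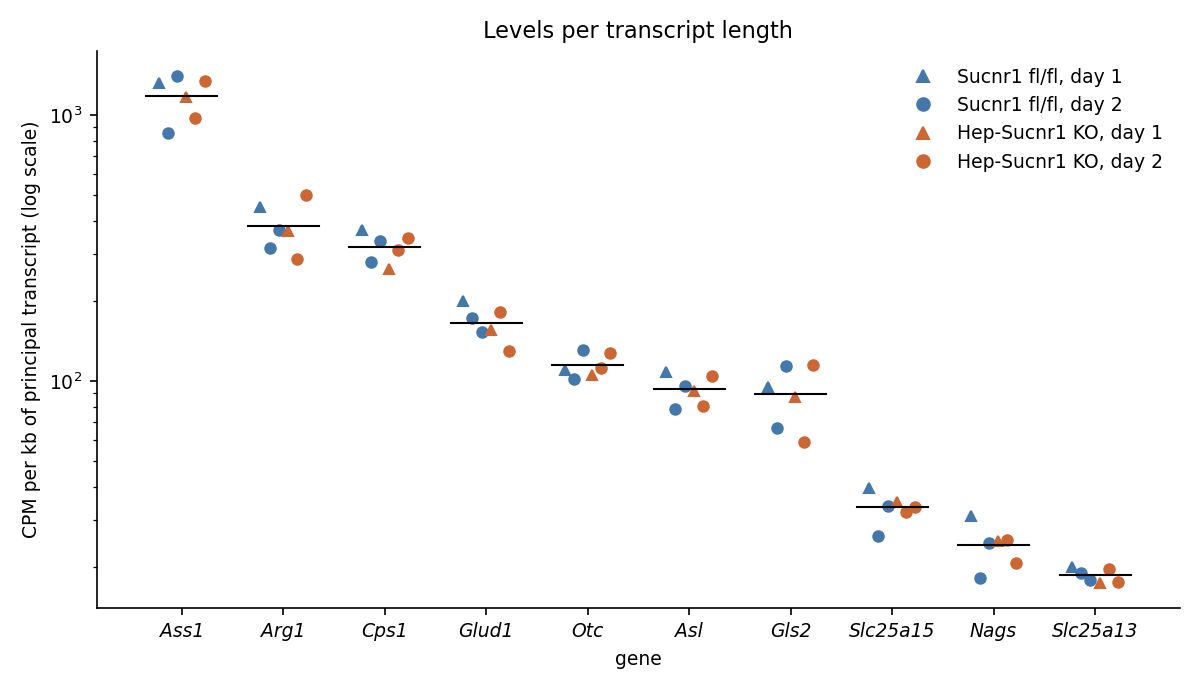
Level of each gene in CPM per kb of its principal transcript (log axis), with 1 point for each of the 6 libraries (color, genotype; triangle, day 1; circle, day 2) and a line at the mean. *Ass1* lay at 1176 CPM per kb and *Slc25a13* at 18.6, and the points of both genotypes intermixed at every gene.

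The matrix enzymes were compared first. *Cps1*, the entry enzyme of the cycle, lies at chromosome 1, 67123026 to 67231259 on the plus strand (GRCm38, ENSMUSG00000025991), with 38 exons in the principal transcript. It was at 2055, 1560 and 1867 CPM in the controls and at 1467, 1728 and 1915 CPM in Hep-Sucnr1 KO. The highest and the lowest value were both day 1 libraries, of opposite genotype, and the groups overlapped. The log2 fold change, taken throughout as Hep-Sucnr1 KO over the controls, was −0.10 (SE 0.18, adjusted p = 0.998, edgeR), and its 95% interval, 0.689-fold to 1.26-fold, contained no change. *Otc*, on chromosome X from 10252305 to 10321024 on the plus strand (ENSMUSG00000031173), was steadier. It was at 254, 237 and 303 CPM in the controls and at 245, 260 and 295 CPM in Hep-Sucnr1 KO, with nearly equal means of 265 ± 34.4 and 267 ± 25.6 CPM (SD, n = 3). Its fold change of 0.01 (SE 0.14, log2) had a 95% interval from 0.796-fold to 1.27-fold.

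*Ass1*, which condenses citrulline with aspartate, lies at chromosome 2, 31470207 to 31520672 on the plus strand (ENSMUSG00000076441). Its level was 2240, 1450 and 2377 CPM in the controls and 1983, 1651 and 2269 CPM in Hep-Sucnr1 KO. Each genotype had its lowest value on day 2, in Sucnr1 fl/fl replicate 2 and Hep-Sucnr1 KO replicate 4. The log2 fold change was −0.04 (SE 0.23), with an interval from 0.663-fold to 1.44-fold. The gene *Gm5424* has a transcript 99.5% identical to that of *Ass1* over 1240 bases, and it was given 5.09% to 5.97% as many counts as *Ass1*, so that the split between them is uncertain. With both counted together the log2 fold change was −0.03. *Asl*, on chromosome 5 from 130011258 to 130029247 on the minus strand (ENSMUSG00000025533), splits argininosuccinate into arginine and fumarate. It was at 260, 190 and 231 CPM in the controls and at 221, 195 and 251 CPM in Hep-Sucnr1 KO. As with *Ass1*, the lowest library of each genotype was Sucnr1 fl/fl replicate 2 and Hep-Sucnr1 KO replicate 4, and the log2 fold change was −0.02 (SE 0.16, interval 0.758-fold to 1.28-fold).

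*Arg1*, the last enzyme of the cycle, lies at chromosome 10, 24915221 to 24927484 on the minus strand (ENSMUSG00000019987). Its level was 668, 467 and 547 CPM in the controls and 541, 425 and 736 CPM in Hep-Sucnr1 KO. The Hep-Sucnr1 KO group held both the highest and the lowest of the 6 values, and the log2 fold change was 0.03 (SE 0.24, interval 0.692-fold to 1.504-fold). Summed over the 5 enzymes, the level was 5477, 3904 and 5325 CPM in the controls and 4457, 4258 and 5467 CPM in Hep-Sucnr1 KO. The control mean of 4902 ± 868 CPM and the Hep-Sucnr1 KO mean of 4727 ± 648 CPM (SD) differed by less than the spread between replicates (two-sided exact permutation test, p = 0.9, where 3 against 3 cannot give less than 0.1).

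The carriers and the cofactor synthase link the cycle to the mitochondrion. *Nags*, which makes the N-acetylglutamate that CPS1 needs for activity, lies at chromosome 11, 102145513 to 102149477 on the plus strand (ENSMUSG00000048217). It was at 63.0, 36.8 and 49.7 CPM in the controls and at 50.6, 51.0 and 42.0 CPM in Hep-Sucnr1 KO. Both extremes were Sucnr1 fl/fl libraries, and the log2 fold change was −0.04 (SE 0.17, interval 0.743-fold to 1.28-fold). *Slc25a15*, the carrier that exchanges ornithine and citrulline across the inner membrane, lies at chromosome 8, 22375551 to 22398597 on the minus strand (ENSMUSG00000031482). Its level was 136, 89.8 and 116 CPM in the controls and 121, 110 and 115 CPM in Hep-Sucnr1 KO. The 3 Hep-Sucnr1 KO values lay inside the range of the controls, with a log2 fold change of 0.03 (SE 0.14, interval 0.811-fold to 1.29-fold). *Slc25a13* (citrin), which exports aspartate for ASS1, lies at chromosome 6, 6041218 to 6217173 on the minus strand (ENSMUSG00000015112). It varied least of the 10 genes, at 62.5, 59.2 and 55.6 CPM in the controls and 54.4, 61.1 and 54.9 CPM in Hep-Sucnr1 KO. Its highest value was 1.15 times its lowest, and the log2 fold change of −0.06 (SE 0.11) had the narrowest interval of the 10, 0.804-fold to 1.15-fold.

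Of the enzymes that release ammonia, *Gls2* varied most. *Gls2*, the liver glutaminase, lies at chromosome 10, 128194457 to 128210004 on the plus strand (ENSMUSG00000044005). It was at 244, 171 and 293 CPM in the controls and at 224, 151 and 295 CPM in Hep-Sucnr1 KO. Each genotype held 1 low, 1 middle and 1 high library, 1.95 times apart at the extremes. The log2 fold change of −0.08 (SE 0.29) had the widest interval, 0.585-fold to 1.53-fold, and was 0.15 without Hep-Sucnr1 KO replicate 4. *Glud1*, which frees ammonia from glutamate, lies at chromosome 14, 34310727 to 34345265 on the plus strand (ENSMUSG00000021794). Its level was 680, 584 and 518 CPM in the controls and 529, 614 and 438 CPM in Hep-Sucnr1 KO. It had the lowest p of the 10 genes (0.375, unadjusted, edgeR), with a log2 fold change of −0.16 (SE 0.17, interval 0.670-fold to 1.19-fold). Without Hep-Sucnr1 KO replicate 4 the *Glud1* estimate was −0.34. Reads shared with its near copies *Gm43444* (72 to 105 counts) and *Glud-ps* (9 to 18 counts) could add little to the 14437 or more counts of *Glud1*.

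Over the 10 genes, the Hep-Sucnr1 KO estimate was higher for 3 and lower for 7, with a median log2 fold change of −0.04 against 0.00 over all genes tested. No gene of the 10 was called, where 0% of all genes passed an FDR of 0.05 in edgeR and 0.0463% (7 genes) did in DESeq2. None had an unadjusted p below 0.05, where 3.73% of all genes did (563), and in none did the groups fall apart, where 10.6% of all genes did. The intervals do not show that the levels are the same. Their lower ends lay between 0.585-fold (*Gls2*) and 0.811-fold (*Slc25a15*) and their upper ends between 1.15-fold (*Slc25a13*) and 1.53-fold (*Gls2*). Without Hep-Sucnr1 KO replicate 4 the median was 0.04 and without Sucnr1 fl/fl replicate 2 it was −0.14, still with no gene called.

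**Figure D3:**
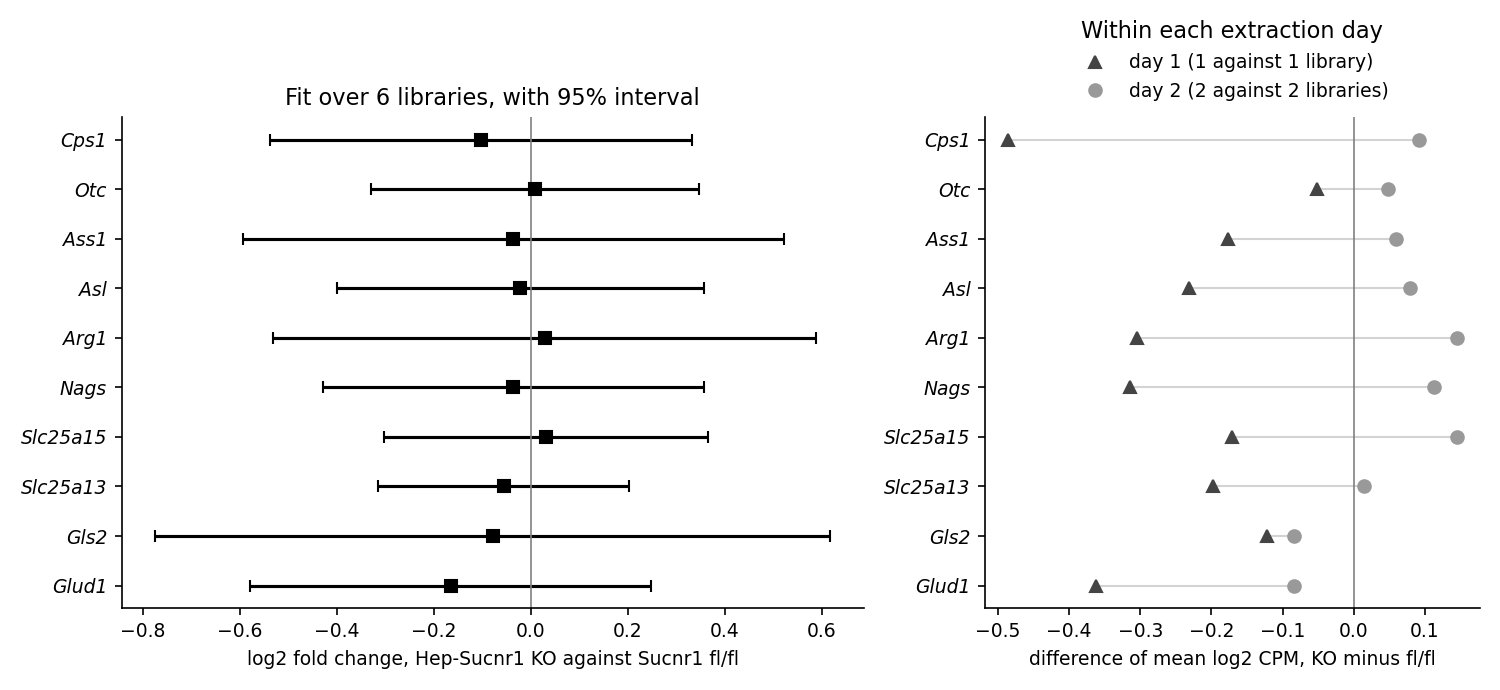
Left, log2 fold change (Hep-Sucnr1 KO over the controls) for the 10 genes from the fit over 6 libraries, with 95% intervals, all of which contain 0. Right, differences of mean log2 CPM on day 1 (triangles, 1 library against 1) and day 2 (circles, 2 against 2), where all 10 triangles lie below 0 and 8 of 10 circles above it.

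Within the extraction days the estimates took opposite signs for most of the genes. Day 1 had a single library of either genotype and so no replicate check. There all 10 genes were lower in the Hep-Sucnr1 KO library, with a median difference of −0.22 (log2 CPM). *Cps1* differed by −0.49, *Glud1* by −0.36, *Nags* by −0.31 and *Arg1* by −0.30. On day 2, with 2 libraries of each genotype, 8 of 10 were higher in Hep-Sucnr1 KO, with a median of 0.07, and *Gls2* and *Glud1* both differed by −0.08. Over all genes, 48.8% were lower on day 1, 51.0% higher on day 2 and 24.5% both. The genes are not independent of each other, and the interaction of genotype and day had an unadjusted p below 0.05 in none of the 10, where 3.69% of all genes had one and 0% passed the FDR. *Cps1* had the lowest interaction p of the 10 (0.165, unadjusted, edgeR, log2 interaction −0.57, SE 0.36). In the day 1 libraries the summed Kupffer cell markers were 28.0 CPM in the controls and 5.57 CPM in Hep-Sucnr1 KO, the stellate cell markers 23.3 and 7.34 CPM and the endothelial markers 48.2 and 21.1 CPM. The hepatocyte markers were at 93086 and 77628 CPM, and the cholangiocyte markers, at 463 and 650 CPM, went the other way. For the interaction, 4 of 6 endothelial markers had an unadjusted p below 0.05 (edgeR). So did 2 of 6 Kupffer cell markers and 2 of 4 tested stellate cell markers. None of the hepatocyte and cholangiocyte markers did. The part of cells other than hepatocytes in the day 1 differences was not tested.

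Between the days themselves none of the 10 genes passed the test either. The largest difference was that of *Nags*, 0.34 (log2, day 1 against day 2, SE 0.17, unadjusted p from edgeR 0.0931), followed by *Slc25a15* at 0.25 (SE 0.15). None of the 10 had an unadjusted p below 0.05, where 7.49% of all genes did (1132), 0% passed the FDR in edgeR and 1.46% (220 genes) did in DESeq2. Sucnr1 fl/fl replicate 1, on day 1, held the highest level of *Cps1*, *Asl*, *Nags*, *Slc25a15*, *Slc25a13* and *Glud1*, while the other day 1 library held none of the highest.

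The 10 genes did not vary as one over the 6 libraries, and their pattern crossed the genotypes. Deviations of log2 CPM from the mean of a gene showed *Ass1*, *Asl*, *Arg1*, *Slc25a15* and *Gls2* with their 2 lowest values in Sucnr1 fl/fl replicate 2 and Hep-Sucnr1 KO replicate 4. *Gls2* was at −0.38 and −0.56 in these libraries and at 0.40 and 0.41 in Sucnr1 fl/fl replicate 3 and Hep-Sucnr1 KO replicate 5. *Ass1* was at −0.44 and −0.25 in the low pair. The pair of libraries was picked after the values were seen, and 11.3% of all genes had the same 2 lowest. *Glud1* and *Slc25a13* ran differently. *Glud1* was at −0.34 in Hep-Sucnr1 KO replicate 5 and at 0.15 in replicate 4, and *Slc25a13* at −0.08 and 0.08 in the same libraries.

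**Figure D4:**
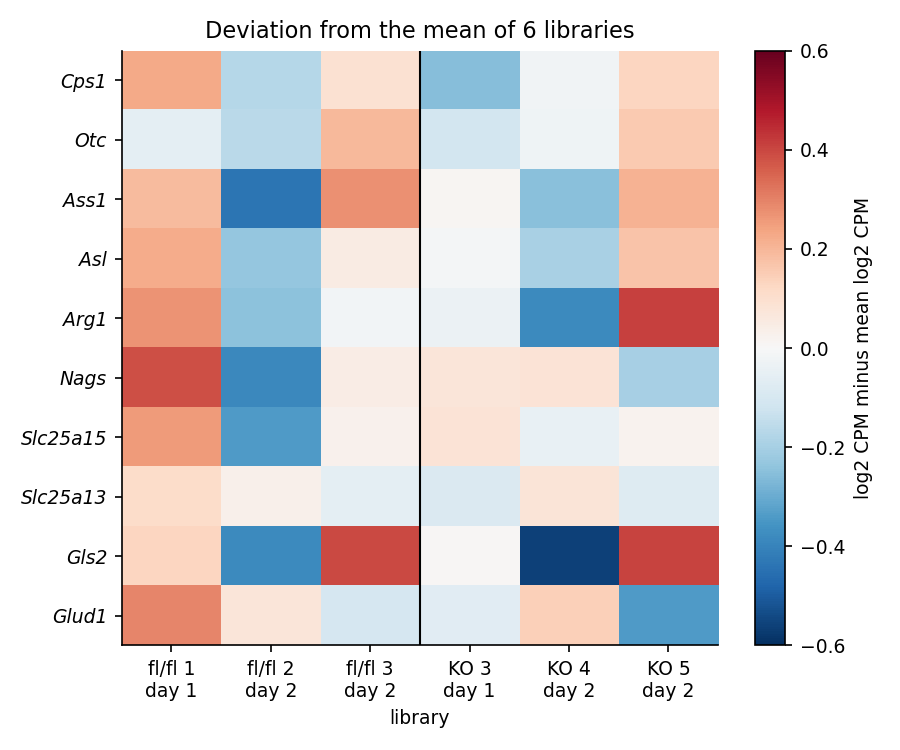
Deviation of each gene's log2 CPM from its mean over the 6 libraries (color scale from −0.6 to 0.6), with a line between the genotypes. Sucnr1 fl/fl replicate 2 and Hep-Sucnr1 KO replicate 4 are blue for *Ass1*, *Asl*, *Arg1* and *Gls2*, and *Glud1* is red in both.

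Pearson's r between the genes, in which each pair shares its 6 libraries and their depth, ranged from −0.61 to 0.94 over 45 pairs, of which 35 were above 0 and 8 above 0.8 (median 0.51). These are descriptions of 6 points, and the shares over all gene pairs were not computed. *Asl* ran with *Arg1* (r = 0.94) and with *Ass1* (0.91), and *Ass1* with *Gls2* (0.92). *Nags* ran with *Slc25a15* (0.89), and *Slc25a13* with *Glud1* (0.90), while *Otc* ran against *Glud1* (−0.61). The genes most like *Cps1* among 15088 others were *Hcar2* (0.99), *Fbxw11*, *Ptprj*, *Rhoj* and *Gm49204*, the last 2 below 1 CPM on average. They are the highest of many values, and 119 genes (0.789%) were above 0.9. Those most like the mean of the 10 genes were *Gm37488*, *Mpp5*, *Usp28*, *Mfsd9* and *Rbpj*, with 362 genes (2.40%) above 0.9.

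Landmark genes of the liver zones were looked at in the same libraries. The 2 lowest values were in Sucnr1 fl/fl replicate 2 and Hep-Sucnr1 KO replicate 4 for 7 of 10 periportal landmarks, against 5 of the 10 genes described here and 6 of 11 genes of amino acid deamination. *Sds* and *Hal*, named after their values were seen, had this pair lowest and are counted in both the periportal and the deamination list. The 2 highest values were in this pair for 4 of 10 pericentral landmarks (*Glul*, *Cyp2e1*, *Rgn* and *Tbx3*), against 9.05% of all genes. *Hal*, a periportal landmark named after its values were seen, frees ammonia from histidine. It was at 215, 156 and 231 CPM in the controls and 200, 127 and 260 CPM in Hep-Sucnr1 KO. *Glul* was at 539, 646 and 439 CPM in the controls and 398, 1002 and 423 CPM in Hep-Sucnr1 KO. The ratio of *Glul* to *Gls2*, the glutamine-forming over the glutamine-splitting enzyme, was 2.21, 3.77 and 1.497 in the controls and 1.78, 6.63 and 1.43 in Hep-Sucnr1 KO. It was highest in the same pair of libraries, and the groups overlapped (two-sided exact permutation test, p = 0.9). Whether the cultures differed in the mix of periportal and pericentral cells or in RNA per cell cannot be told apart in bulk samples.

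**Figure D5:**
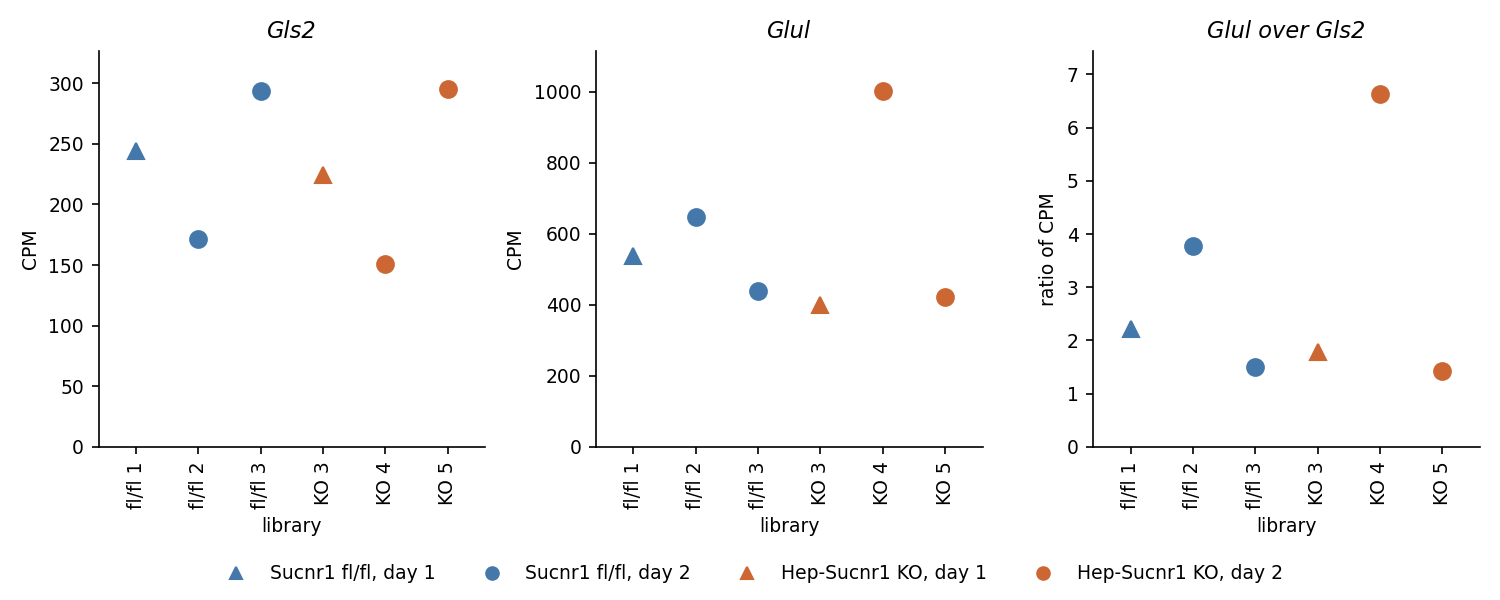
Levels of *Gls2* and *Glul* (CPM) and the ratio of *Glul* to *Gls2* in the 6 libraries (color, genotype; triangle, day 1; circle, day 2; axes from 0). Hep-Sucnr1 KO replicate 4 had the lowest *Gls2* (151 CPM), the highest *Glul* (1002 CPM) and a ratio of 6.63, and Sucnr1 fl/fl replicate 2 was next in all 3.

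Ratios between the genes were compared in the same way, with p-values adjusted over 6 measures. The ratio of *Ass1* to *Cps1* was 1.10 ± 0.172 in the controls and 1.16 ± 0.199 in Hep-Sucnr1 KO (SD, n = 3, exact permutation p = 0.7), of *Glud1* to *Cps1* 0.327 ± 0.0487 and 0.315 ± 0.0746 (exact permutation p = 0.8), and of *Glud1* to *Gls2* 2.66 ± 0.831 and 2.64 ± 1.31 (exact permutation p = 1). Each of these, the sum of the 5 enzymes and the ratio of *Glul* to *Gls2* had an adjusted p of 1.

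Around the cycle, 12 genes of arginine and ornithine use were tested and none had an unadjusted p below 0.05. Of these, 8 were higher and 4 lower, with a median log2 fold change of 0.04. *Slc7a2*, the cationic amino acid importer of hepatocytes and the most abundant of the list, was at 301, 235 and 267 CPM in the controls and 175, 171 and 304 CPM in Hep-Sucnr1 KO, with a log2 fold change of −0.32 (SE 0.25). *Agmat*, which makes putrescine from agmatine, had the lowest p of the list (0.172, edgeR, log2 fold change 0.18). *Oat*, the ornithine aminotransferase of pericentral cells, was at 100.2, 98.5 and 136 CPM in the controls and 91.8, 354 and 80.5 CPM in Hep-Sucnr1 KO. Its estimate of 0.56 (SE 0.52) was −0.36 without replicate 4. *Car5a*, the mitochondrial carbonic anhydrase that supplies bicarbonate to CPS1, was at 12.4, 12.7 and 13.1 CPM and then 12.6, 21.9 and 9.38 CPM, again with replicate 4 highest. The paralogs of the cycle's genes were scarce. *Arg2*, the mitochondrial arginase, was at 0.632 to 2.54 CPM, and *Slc25a2*, a second ornithine carrier, at 0 to 0.334 CPM.

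Of 16 tested genes of glutamine, glutamate and malate–aspartate exchange, 9 were higher and 7 lower (median 0.02). An unadjusted p below 0.05 was found for 1 of them, where 3.73% of all genes had one, and 1 had groups that did not overlap, where 10.6% of all genes did. That gene was *Rhbg*, an ammonium transporter of pericentral hepatocytes, at 0.260, 0.391 and 0.264 CPM in the controls and 0.601, 1.30 and 0.607 CPM in Hep-Sucnr1 KO. Its level was low, the groups did not overlap, and the log2 fold change was 1.42 (SE 0.43, unadjusted p = 0.0134, adjusted p = 0.998, edgeR). Without Hep-Sucnr1 KO replicate 4 the estimate was 1.01 with an unadjusted p of 0.0645. *Slc1a2*, a glutamate importer of the same zone, had an estimate of 1.56 (SE 0.67), or 0.28 without replicate 4, which was at 37.7 CPM against 3.75 to 7.95 CPM in the other 5 libraries. *Slc38a3*, the main glutamine carrier of hepatocytes and the most abundant of the list, was at 1046, 767 and 825 CPM in the controls and 736, 685 and 848 CPM in Hep-Sucnr1 KO (log2 fold change −0.21, SE 0.17). The aspartate aminotransferases *Got1* and *Got2* differed by −0.08 and −0.03 (log2), *Glul* by 0.12 (−0.39 without Hep-Sucnr1 KO replicate 4 and −0.11 without Sucnr1 fl/fl replicate 3), and *Slc25a12*, the citrin paralog, by 0.15 at 5.67 to 7.32 CPM. *Slc25a18* was below the filter.

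Among 11 tested genes of amino acid deamination, 6 were higher and 5 lower (median 0.07), with none at an unadjusted p below 0.05 for genotype. *Tat*, the tyrosine aminotransferase and the most abundant, had a mean of 682 ± 213 CPM (SD, n = 3) over the controls and of 701 ± 72.4 CPM over the Hep-Sucnr1 KO libraries, with a log2 fold change of 0.07 (SE 0.23). *Amt*, of the glycine cleavage system, had a log2 fold change of 0.25 (SE 0.14) and *Asrgl1*, an asparaginase, of 0.30 (SE 0.20). *Gcsh*, another part of glycine cleavage, was the gene of the list whose groups did not overlap, at 41.2 to 43.0 and 45.4 to 46.5 CPM (1 of 11, where 10.6% of all genes did not overlap), and was named after its values were seen. *Tdh* was below the filter.

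Of 12 transcription factors and receptors known to act on these genes, 3 were higher and 9 lower, with a median of −0.15, the lowest of the 4 lists. *Ppargc1a*, a coactivator induced by fasting, had an unadjusted p of 0.0445 and an adjusted p of 0.998 (edgeR). It was at 4.08, 2.74 and 2.90 CPM in the controls and 2.09, 1.57 and 2.52 CPM in Hep-Sucnr1 KO, without overlap, and the log2 fold change was −0.63 (SE 0.26). Without Hep-Sucnr1 KO replicate 4 it was −0.50 with an unadjusted p of 0.124 (edgeR). *Foxo1* followed at −0.21 (SE 0.10, unadjusted p = 0.0821, edgeR), and *Cebpb*, the most abundant of the list, was at 567 to 602 CPM and 504 to 633 CPM. Named after their values were seen, *Creb1* (21.1 to 23.3 and 19.2 to 19.6 CPM) and the glucagon receptor gene *Gcgr* (99.9 to 105 and 106 to 113 CPM) were the other 2 of the list whose groups did not overlap, in opposite directions, where 10.6% of all genes did not overlap.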

How the data were processed

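RNA sequencing libraries of primary hepatocytes were grouped by their labels into 3 Sucnr1 fl/fl controls and 3 Hep-Sucnr1 KO. The authors trimmed the reads (Trim Galore 0.6.7), aligned them to GRCm38 (STAR 2.7.10a), counted read pairs per Ensembl gene by strand (featureCounts) and deposited these raw counts, which are not normalized. How pairs matching several genes were counted is not given in the sources used here. Genes with a mean DESeq2-normalized count above 5 were kept. Genotype, extraction day and, in a separate model, their interaction were tested with edgeR 4.0.16 (R 4.3.3, TMM factors, quasi-likelihood F-test, Benjamini-Hochberg adjustment over 15105 genes, threshold 0.05), after tests on simulated data. Log2 CPM used a prior count of 2. Single measures were compared with exact permutation tests (SciPy 1.17.1), which took no account of extraction day. Alternatives were DESeq2 1.42.0, other scalings, filters and covariates, a robust fit and each library left out. Principal transcripts and coordinates came from GENCODE for GRCm38, near copies from blastn 2.17.0+, and figures from matplotlib.

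The rule for the 10 genes uses no measured value, but the genes and the lists were chosen with earlier results of these data known. Named besides the 10 genes and *Sucnr1* were fixed partners (*Arg2*, *Slc25a2*, *Slc25a12*, *Glul*, *Oat*, *Got1*, *Got2*, *Car5a*, *Slc7a2*), in each list the 2 genes with the lowest genotype p and the most abundant, and the 5 genes most correlated with *Cps1* and with the mean of the 10. One further partner is not reported here. Others are marked as named after their values were seen. The libraries held 30504248 to 38770694 counts, and columns of the table all belonged to these 6 samples.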

Additional observations from a re-analysis of the deposited data

How the results depend on the processing

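With 3 cultures a genotype, the 95% intervals of the 10 genes reach from 0.804-fold to 1.15-fold at the narrowest (*Slc25a13*) and from 0.585-fold to 1.53-fold at the widest (*Gls2*). Depth does not limit them. None of the 10 was called for genotype or day under any alternative run, with adjusted p between 0.928 and 1 for genotype and 0.546 and 1.00 for day. DESeq2 called 7 genes for genotype and 220 for day, and edgeR without a filter called 122 for day. With each library left out in turn, day calls ranged from 0 to 29, the latter without Sucnr1 fl/fl replicate 2. The median of the 10 ranged from −0.14 to 0.06 over these fits, within 1 SD of the library medians (0.180). No paired analysis was possible because the genotypes share only 1 replicate number, which marks libraries of different days. Extraction day is a term of the main model.

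Signs turned under several alternatives, and the cause was not tested. For genotype (log2), *Otc* turned to −0.0114 with DESeq2 or its size factors in edgeR, to −0.00952 without a filter, to −0.0155 with library size alone and to −0.17 with the index series as a term. *Arg1* turned to −0.00197 with library size alone, and *Slc25a15* to −0.11 and *Slc25a13* to 0.0381 with the index series. With the day 2 libraries alone *Cps1* was 0.0806, *Ass1* 0.0299, *Asl* 0.0763, *Nags* 0.0982 and *Slc25a13* 0.00626. Leaving out single libraries gave −0.23 to 0.0876 for *Cps1*, −0.10 to 0.11 for *Otc*, −0.23 to 0.17 for *Ass1*, −0.16 to 0.0832 for *Asl*, −0.28 to 0.19 for *Arg1*, −0.19 to 0.10 for *Nags*, −0.10 to 0.13 for *Slc25a15*, −0.12 to 0.0154 for *Slc25a13* and −0.40 to 0.16 for *Gls2*. *Glud1* kept its sign, at −0.34 to −0.06 with libraries left out, but was −0.00646 with the index series. That term, a grouping made from the index names and partly confounded with genotype, moved *Ass1* to −0.36, *Gls2* to −0.46 and the median of the 10 to −0.12. For day, *Cps1* turned to 0.00128 with DESeq2 or its size factors and 0.00449 without a filter, and *Slc25a13* to −0.0179 with the index series. Leaving out libraries gave −0.31 to 0.30 for *Cps1*, −0.00906 to 0.345 for *Asl*, −0.10 to 0.44 for *Arg1*, −0.0904 to 0.16 for *Slc25a13* and −0.13 to 0.29 for *Gls2*. By merged exon length, added after seeing the data, *Arg1* and *Cps1* swapped ranks 2 and 3, and *Gls2*, *Otc* and *Asl* took ranks 5, 6 and 7. Adding the counts of *Gm5424* to *Ass1*, also added later, gave −0.03.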
